A study of Mus musculus with 12 samples.

Results

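Rbm3 and Cirbp encode the 2 best known cold-inducible RNA-binding proteins of mammals, and 2900002K06Rik is a non-coding gene that starts inside Rbm3 and runs on the opposite strand. The 3 genes were chosen by name, with their levels in all 4 groups of libraries already known, so their own values are given here as a description and carry no test. Every transcript filed under these symbols was taken, which gave 32 transcripts (20 of Rbm3, 9 of Cirbp and 3 of 2900002K06Rik) among 189364 transcripts of 52169 gene symbols. The RNA came from the striatum of C57BL/6J mice whose dopaminergic innervation had been removed on the right side by injecting the neurotoxin 6-OHDA into the medial forebrain bundle, after desipramine to protect noradrenergic neurons. After 2 weeks of recovery the mice received 10 mg/kg L-DOPA with 7.5 mg/kg of the peripheral decarboxylase inhibitor benserazide, either as 1 dose (acute) or daily for 9 days (chronic), and were killed 1 h after the last dose. The lesioned and the unlesioned striatum were sampled separately, with 3 punches by the labels and a single punch per side by the methods for expression, which gave 4 groups of 3 libraries each: acute unlesioned, acute lesioned, chronic unlesioned and chronic lesioned. All groups therefore carried L-DOPA, and no group without it is analysed here, so a chronic-to-acute difference is a difference between 2 schedules, in different mice. By the submitters' account the lesion procedure causes a large loss of striatal tyrosine hydroxylase and marked akinesia of the opposite side of the body. The labels of all 12 libraries state that heads were cooled in liquid nitrogen for a few seconds before dissection, a step the methods give for other assays and not for RNA.

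Both proteins hold an RNA recognition motif followed by a glycine-rich tail and bind many mRNAs. In cultured cells and in tissues their mRNAs are known to be raised by mild cooling and lowered by warming, and they follow the daily rhythm of body temperature. In the brain, Rbm3 is known for preserving synapses in cooled mice, and Cirbp for binding stress-response mRNAs. Part of the temperature dependence of Rbm3 is known to run through a cassette exon that carries an early stop codon: transcripts that include it are degraded by nonsense-mediated decay. These points are background and not results of these libraries.

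The cassette exon is shown because several results below turn on it. It is exon chrX:7721301-7721571 (NCBIM37, which is mm9, minus strand, 271 bases), annotated in GENCODE M1 in 2 transcripts of Rbm3 with the biotype nonsense_mediated_decay. It lies between the coding exons chrX:7721699-7721805 and chrX:7720974-7721073 and is flanked by AG and GT. The reading frame enters it after 210 coding bases, at its first base, and meets the first stop at its bases 61 to 63, here in capitals. The stretch printed runs from chrX:7721571 to chrX:7721509 and is given 5′ to 3′ as transcribed.
Rbm3 cassette exon, first 63 bases: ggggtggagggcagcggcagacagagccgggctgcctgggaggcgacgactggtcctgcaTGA

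The promoter of Cirbp is shown as a description, and its part in the levels given below was not tested. RefSeq (GRCm38.p6) lists 2 starts for Cirbp, and the stretch printed is the 250 bases before the more upstream one, chr10:80167589-80167838 on the plus strand. Capitals mark TCCCCGCC, the letters of an element known from the response of Cirbp to mild cold.
Cirbp promoter, 250 bases: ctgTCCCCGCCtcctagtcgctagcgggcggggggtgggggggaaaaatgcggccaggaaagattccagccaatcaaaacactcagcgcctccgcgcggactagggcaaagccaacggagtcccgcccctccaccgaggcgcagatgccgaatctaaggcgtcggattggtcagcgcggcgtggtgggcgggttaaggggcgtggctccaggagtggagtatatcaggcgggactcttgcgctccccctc

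On both strands this window held TCCCCGCC 1 time, CCAAT 2 times and GGGCGG 3 times, and none of the matches overlapped another. Among 32851 RefSeq promoters cut to the same 250 bases, TCCCCGCC was found in 4.64%, CCAAT in 33.8% and GGGCGG in 32.7%. The letters CACGTG (in 6.02% of promoters), TGACGTCA (1.55%) and GAANNTTC (6.69%) were not in the window. The second Cirbp window held GGGCGG 4 times and none of the other 5. These matches describe letters and not sites. Of the 3 genes, Cirbp alone was matched in this table.

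Libraries held 87695043 to 173116525 counts, where a read can be counted on several transcripts of a gene, so CPM here are scaled to the total of such counts and understate a transcript's share of reads. Summed CPM of 9 markers of striatal medium spiny neurons lay between 1800 and 2420 in every library, against 4.71 to 43.3 for 6 markers of cortical glutamatergic neurons. The choroid plexus markers (4 genes) summed to 0.599 to 1.19 CPM in acute, 1.53 to 3.03 CPM in chronic lesioned and at least 1.96 CPM in chronic unlesioned libraries. Every chronic library was thus above every acute one. In chronic unlesioned replicate 2 they summed to 466 CPM, nearly all of it Ttr (449 CPM, against at most 1.51 CPM in any other library). Without that library Cirbp was higher in chronic than acute unlesioned striatum by 1.52 ± 0.14 on the log2 scale and the proximal Rbm3 mRNA described below by 1.91 ± 0.17. In the methods of the study the mice are female, which the RNA goes against. The Y-linked genes Ddx3y, Eif2s3y, Kdm5d and Uty were at 2.14 to 21.9 CPM in all 12 libraries and Xist at 0 to 0.0806 CPM. Microglial markers (7 genes) summed to 70.7 to 93.1 CPM in acute and 48.8 to 63.4 CPM in chronic libraries, and oligodendrocyte markers (6 genes) to 2090 to 3500 and 1160 to 2230 CPM. The part of these and of the choroid plexus markers in the differences between treatments was not tested. In bulk tissue, fewer cells of a type and less RNA per cell cannot be told apart.

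Cirbp was higher in the chronic than in the acute groups, 2.73-fold in the lesioned and 2.63-fold in the unlesioned striatum, and the 2 sides of the brain overlapped. Its most abundant transcript, ENSMUST00000105365 (chr10:79630523-79634400, mm9, plus strand, 7 exons, 1321 bases), stood at 5.41, 6.35 and 8.36 CPM in the acute unlesioned libraries. The acute lesioned libraries gave 5.9, 6.16 and 8.41 CPM. The chronic unlesioned libraries gave 20.8, 14.3 and 17.7 CPM, from 1708 to 2638 counts. All 6 chronic libraries were above all 6 acute libraries, while within a treatment the lesioned and unlesioned libraries overlapped. The chronic lesioned libraries gave 21.2, 15.5 and 19.4 CPM. As group means this is 6.71 ± 1.51 (SD, n = 3) acute unlesioned, 6.83 ± 1.38 acute lesioned, 17.6 ± 3.28 chronic unlesioned and 18.7 ± 2.92 chronic lesioned, in rising order, and neither the first nor the last pair of neighbours in that order differed beyond its spread.

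**Figure D1:**
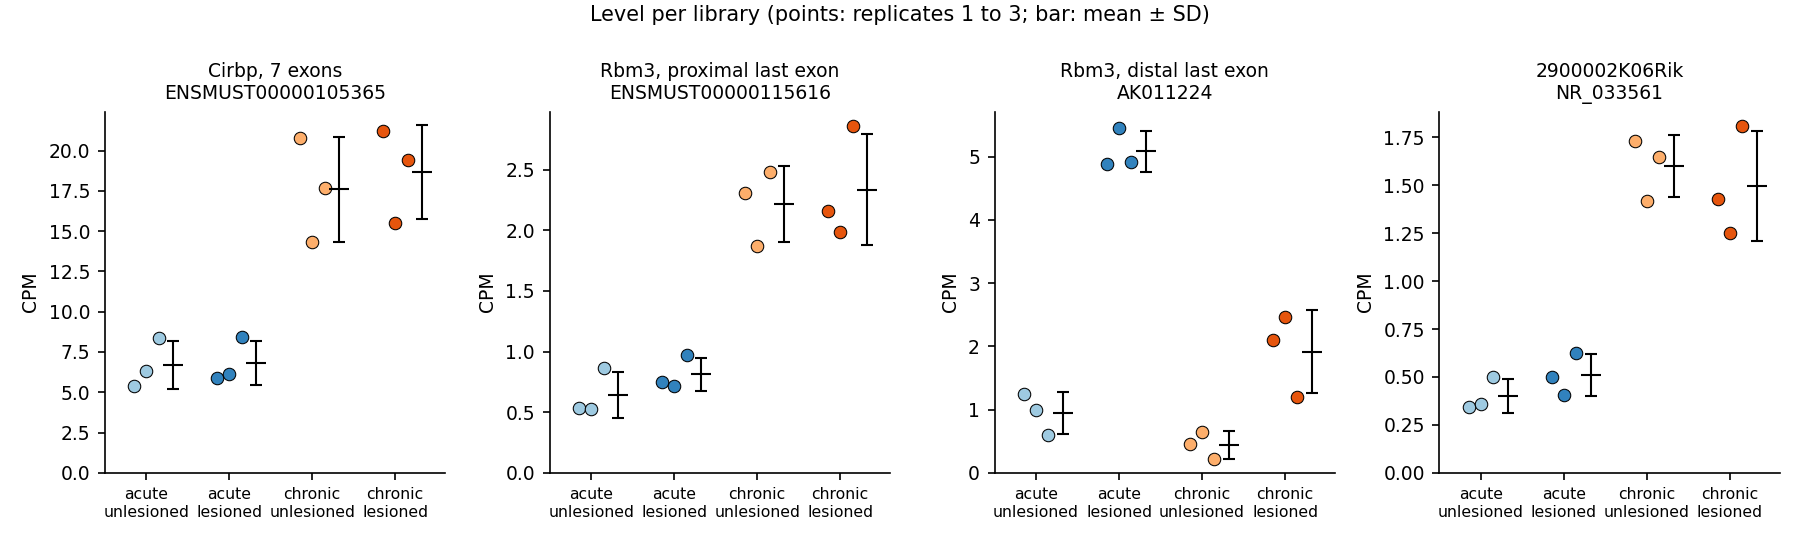
CPM per library (vertical axes, from 0) of 4 transcripts in the 4 groups, each point 1 library and each bar the mean ± SD of 3. Cirbp, the proximal Rbm3 mRNA and 2900002K06Rik sit higher in all 6 chronic libraries, whereas the distal Rbm3 transcript is highest in the acute lesioned libraries (4.88 to 5.45 CPM).

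For Cirbp the log2 fold change of chronic against acute was 1.45 ± 0.15 (SE) in the lesioned and 1.39 ± 0.16 in the unlesioned striatum. Between the lesioned and the unlesioned side it was 0.03 ± 0.16 after acute and 0.09 ± 0.15 after chronic L-DOPA, and the difference between these lesion effects was 0.06 ± 0.25. In a fit blocked on replicate number, which takes the 2 striata of a number as a pair, the sides differed by 0.04 ± 0.06 and 0.09 ± 0.06. By number, Cirbp was higher on the lesioned side in each chronic pair, while acute replicate 2 went the other way. Of 19789 genes measured in the lesioned striatum, each by its most abundant transcript, 1.09% had a higher chronic-to-acute log2 fold change than Cirbp, and of 20292 in the unlesioned striatum 0.355%. Left out in turn, no library moved the chronic-to-acute value outside 1.26 to 1.63.

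The 9 Cirbp transcripts did not all share this pattern. The 8 that overlap the 7-exon gene body, with retained-intron, alternative-start and alternative-end models among them, had chronic-to-acute log2 fold changes of 1.42 to 1.47 in the lesioned and 1.34 to 1.53 in the unlesioned striatum, and their chronic and acute libraries did not overlap. Across genes, all chronic libraries were above all acute libraries for 20.4% in the lesioned and 12.1% in the unlesioned striatum, and below them for 21.7% and 14.3%. The ninth, ENSMUST00000147190 (chr10:79634727-79635443), begins past the usual end of the gene and is annotated as a retained intron. It had 30 to 73 counts in each library, its groups overlapped, and its log2 fold changes were 0.34 ± 0.3 and 0.23 ± 0.3. Its counts per count of ENSMUST00000105365 therefore lay at 0.0369 to 0.0635 in the 6 acute and 0.0188 to 0.0301 in the 6 chronic libraries. By contrast, the retained-intron model ENSMUST00000139935 kept a ratio of 0.214 to 0.253 and ENSMUST00000151321 of 0.409 to 0.484 over the 12 libraries. These transcripts overlap and share reads, so they are not separate measurements of the gene.

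Rbm3 (chrX, minus strand) gave different answers for different parts of the gene. Most of the 20 transcripts share the 5′ coding exons and part at the 3′ end. Of the 20, 10 carry 7 exons and a proximal last exon (in ENSMUST00000115616, chrX:7719494-7720081), 5 reach a distal last exon (chrX:7716101-7718334), 2 include the cassette exon printed above, 2 retain an intron and 1 is a short 2-exon fragment. Coding sequence ends before either last exon.

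**Figure D2:**
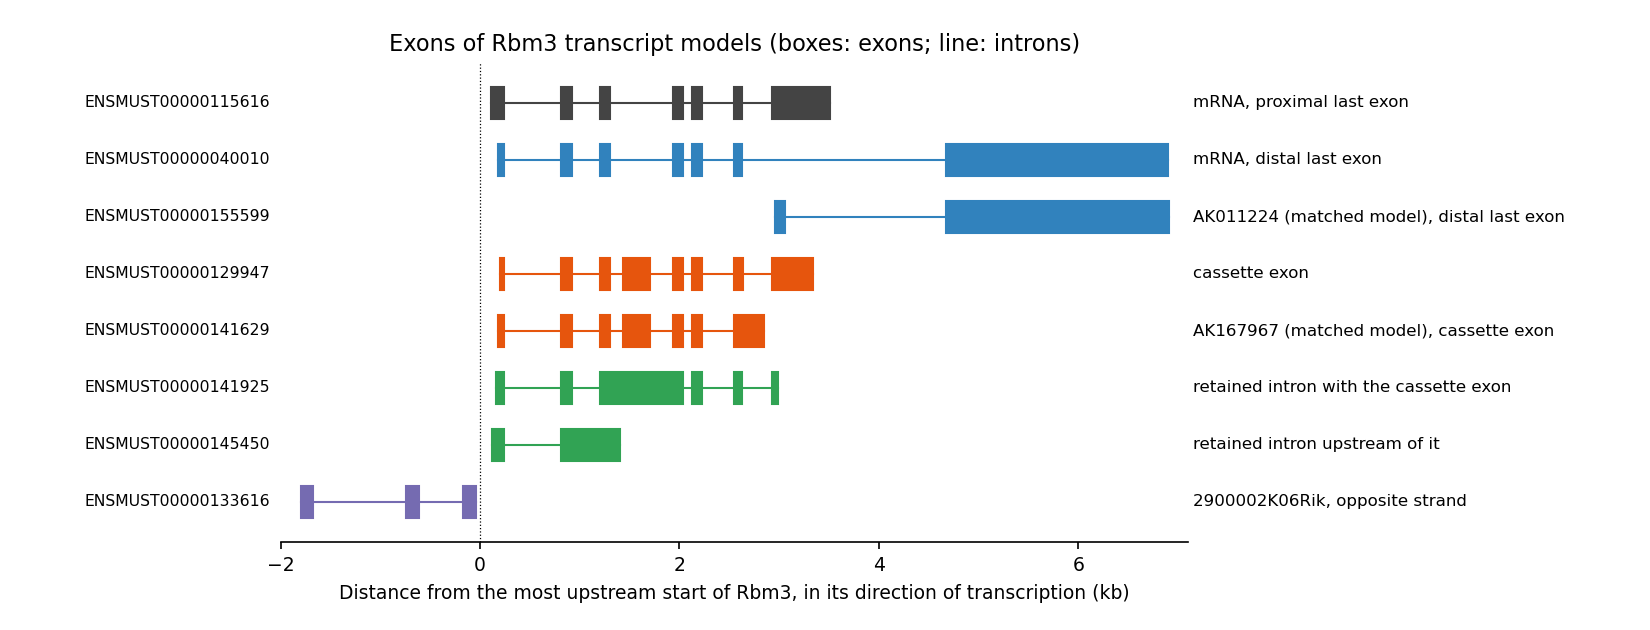
Exons (boxes) and introns (lines) of 7 GENCODE M1 models of Rbm3 and of 1 model of 2900002K06Rik, placed by distance in kb from the most upstream Rbm3 start. The Rbm3 models share exons near the start, except ENSMUST00000155599 (matched to AK011224), which has none there. They differ in the last exon, the cassette exon and the retained introns. The antisense model drawn, ENSMUST00000133616, lies wholly upstream of the start.

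The proximal mRNA followed Cirbp. ENSMUST00000115616 (chrX:7719494-7722899, 1225 bases) stood at 0.535, 0.526 and 0.862 CPM in acute unlesioned and at 0.75, 0.717 and 0.969 CPM in acute lesioned striatum. It stood at 2.31, 1.87 and 2.48 CPM in chronic unlesioned and at 2.16, 1.99 and 2.86 CPM in chronic lesioned striatum. Every chronic library was above every acute one, and the 2 sides overlapped within each treatment. Taken as pairs by replicate number, every acute lesioned library was above its unlesioned one, as were the chronic ones except replicate 1. The chronic-to-acute log2 fold change was 1.52 ± 0.17 (2.88-fold) in the lesioned and 1.80 ± 0.18 (3.49-fold) in the unlesioned striatum. Lesioned against unlesioned, it was 0.36 ± 0.20 after acute and 0.08 ± 0.16 after chronic L-DOPA. All 10 proximal transcripts lay at 1.42 to 1.53 and 1.74 to 1.81 for the chronic-to-acute differences, with no overlap between chronic and acute libraries.

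Per kilobase of transcript the proximal Rbm3 mRNA was the scarcer of the pair. Its level was 0.523 ± 0.156 CPM per kb (SD, n = 3) in acute unlesioned and 1.91 ± 0.377 in chronic lesioned striatum, against 5.08 ± 1.14 and 14.1 ± 2.21 for Cirbp ENSMUST00000105365. Over the 12 libraries the log2(CPM + 0.5) values of the 2 transcripts had a Pearson correlation of 0.975, a description in which the large step between treatments and the shared libraries count for much. With the distal transcript AK011224 the same measure was -0.458 for Cirbp and -0.409 for the proximal Rbm3 mRNA.

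The distal last exon went the other way between treatments and differed between the 2 sides. AK011224 (chrX:7716101-7720044, 2 exons, 2326 bases), whose span is that of the GENCODE model ENSMUST00000155599, lies almost wholly in this exon. The other exon of that model (chrX:7719953-7720044, 92 bases) falls within the proximal last exon. AK011224 had 220, 137 and 79 counts (1.25, 0.986 and 0.592 CPM) in acute unlesioned and 644, 471 and 527 counts (4.88, 5.45 and 4.91 CPM) in acute lesioned striatum. In chronic unlesioned striatum it had 50, 77 and 32 counts (0.461, 0.643 and 0.215 CPM), and in chronic lesioned striatum 184, 266 and 131 counts (2.1, 2.46 and 1.19 CPM). The lesioned libraries were above the unlesioned ones in both treatments, and the acute lesioned libraries above all others. The chronic unlesioned libraries overlapped the acute unlesioned ones, and these overlapped the chronic lesioned ones, in each case by 1 library.

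On the log2 scale AK011224 was higher on the lesioned side by 2.41 ± 0.18 (5.3-fold) after acute and by 2.15 ± 0.35 (4.43-fold) after chronic L-DOPA, and 0.5% and 0.816% of genes exceeded it there. Each gene was ranked by its most abundant transcript, whereas AK011224 is the most extreme of the 20 Rbm3 transcripts in all 4 comparisons between groups named here. For NM_016809, the most abundant Rbm3 transcript, the shares between sides were 0.828% and 5.85%. AK011224 was 2.65-fold lower in chronic than acute lesioned striatum (log2 fold change -1.41 ± 0.2) and 2.21-fold lower in chronic than acute unlesioned striatum (-1.14 ± 0.35). Only 0.869% and 0.399% of genes had lower values. Leaving out chronic unlesioned replicate 3 took that last value to -0.78 and leaving out replicate 2 to -1.56. All 5 distal transcripts were higher in every lesioned than in every unlesioned library, in both treatments. Across genes this held for 17.1% in the acute and 16.5% in the chronic comparison, and the reverse for 17.8% and 15.9%.

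The other 4 distal transcripts also contain the shared exons, and their values mix both patterns. NM_016809 (chrX:7716101-7722928), the Rbm3 transcript with the highest mean count, stood at 1.78, 1.5 and 1.45 CPM in acute unlesioned and 5.52, 6.12 and 5.83 CPM in acute lesioned striatum, and at 2.74, 2.47 and 2.62 CPM in chronic unlesioned and 4.2, 4.41 and 3.9 CPM in chronic lesioned striatum. No pair of its 4 groups overlapped. Its chronic-to-acute log2 fold change was -0.48 ± 0.09 in the lesioned and 0.72 ± 0.11 in the unlesioned striatum, so the direction for Rbm3 as a gene depends on which transcript stands for it. The lesion effect of NM_016809 was 1.88 ± 0.09 acute and 0.68 ± 0.1 chronic, a change of -1.2 ± 0.13.

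A read can be counted on several of these transcripts, and the rule for which is not given in the sources used here. The ends of a transcript mattered to its count. ENSMUST00000040010 extends past ENSMUST00000115619 in the distal exon, which AK011224 covers, and by a few bases elsewhere, chiefly at the 5′ end. In chronic unlesioned replicate 3 they had 276 and 159 counts, a gap wider than the 32 counts of AK011224. Counts of Rbm3 transcripts that differ at their 5′ ends are therefore not exchangeable, and how many reads lie in one exon was not read from differences between them. The markers of other cells also differed by side. Astrocyte markers (6 genes) summed to 511 to 567 CPM in acute unlesioned and 569 to 730 CPM in acute lesioned libraries, and to 510 to 599 and 607 to 637 CPM in the chronic ones, without overlap. Microglial markers were at 70.7 to 73.9 and 79.1 to 93.1 CPM in acute unlesioned and lesioned libraries and overlapped in the chronic ones. Cortical markers averaged 20.8 ± 9.61 and 9.88 ± 7.45 CPM in acute and 26 ± 17.4 and 11.7 ± 11.4 CPM in chronic unlesioned and lesioned striatum, with overlap. Their part in the Rbm3 differences between sides was not tested.

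The cassette-exon transcript set the 4 groups apart when read against the proximal mRNA. ENSMUST00000129947 (chrX:7719667-7722805, 8 exons) had 102 to 157 counts in acute unlesioned, 174 to 209 in acute lesioned, 125 to 236 in chronic unlesioned and 197 to 315 in chronic lesioned striatum. Its counts per count of the proximal mRNA, a ratio within each library that does not depend on library size, were 1.36, 1.4 and 1.37 in acute unlesioned and 2.11, 2.81 and 1.95 in acute lesioned striatum. They were 0.538, 0.558 and 0.64 in chronic unlesioned and 1.04, 1.1 and 1 in chronic lesioned striatum. The 4 groups did not overlap, and the ratio was highest in acute lesioned and lowest in chronic unlesioned striatum.

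Group means of that ratio were 2.29 ± 0.454 (SD, n = 3), 1.37 ± 0.0196, 1.05 ± 0.0479 and 0.578 ± 0.0539 for acute lesioned, acute unlesioned, chronic lesioned and chronic unlesioned striatum. The second cassette transcript, AK167967, gave the same order (2.91 ± 0.478, 1.78 ± 0.141, 1.46 ± 0.0947 and 0.913 ± 0.0254). Both transcripts share most of their bases with the mRNA, so the ratios hold shared reads on both sides and are not the share of transcripts that include the exon. They also start at other bases than ENSMUST00000115616. Against AK088031, a proximal mRNA whose start is closer to theirs, chosen after its values were seen, ENSMUST00000129947 stood at 2.39 to 3.22 in acute lesioned, 1.91 to 2 in acute unlesioned, 1.29 to 1.41 in chronic lesioned and 0.78 to 0.919 in chronic unlesioned libraries, the same order without overlap. As levels, ENSMUST00000129947 was higher on the lesioned side by 1.06 ± 0.17 after acute and 0.91 ± 0.17 after chronic L-DOPA on the log2 scale, without overlap of libraries. Its chronic-to-acute log2 fold change was 0.42 ± 0.14 in the lesioned and 0.57 ± 0.21 in the unlesioned striatum, against 1.52 and 1.8 for the proximal mRNA.

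**Figure D3:**
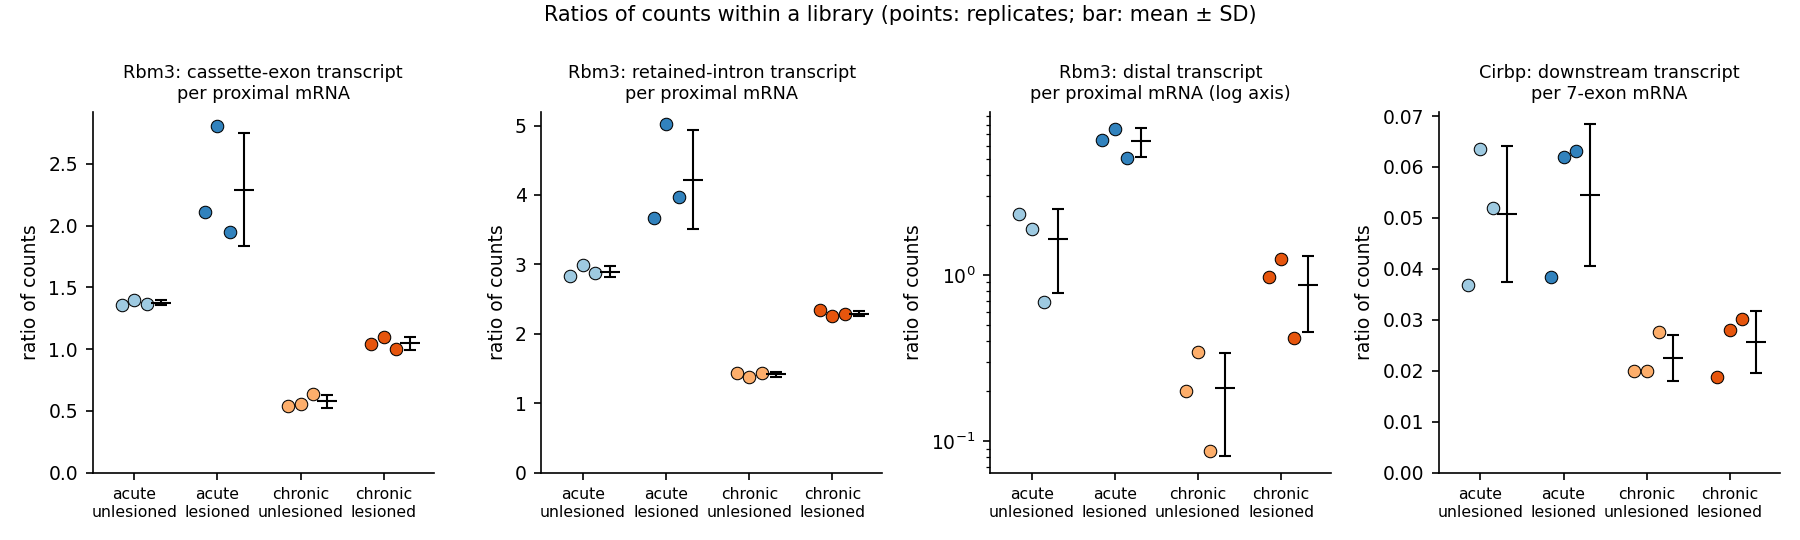
Ratios of counts within each library (points, 1 per library; bars, mean ± SD of 3) for 3 Rbm3 transcripts against the proximal mRNA and for the downstream Cirbp transcript against the 7-exon mRNA; the axis of the distal transcript is logarithmic. The cassette and retained-intron ratios separate all 4 groups, from 1.95 to 2.81 in acute lesioned down to 0.538 to 0.64 in chronic unlesioned striatum for the cassette transcript.

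ENSMUST00000141925, which retains the whole intron around the cassette exon, behaved in the same way. Its ratio to the proximal mRNA was 3.67 to 5.02 in acute lesioned, 2.83 to 2.99 in acute unlesioned, 2.26 to 2.34 in chronic lesioned and 1.38 to 1.44 in chronic unlesioned libraries, again without overlap. ENSMUST00000145450, which extends the exon upstream of the cassette exon into that intron, had chronic-to-acute log2 fold changes of 1.23 ± 0.18 in the lesioned and 1.57 ± 0.19 in the unlesioned striatum. The short fragment, ENSMMUT00000025786, had only 6 to 43 counts per library, and its values were 1.08 ± 0.33 and 1.71 ± 0.37. The ratio of the distal transcript AK011224 to the proximal mRNA spread more widely, at 5.07 to 7.6 in acute lesioned, 0.687 to 2.34 in acute unlesioned, 0.417 to 1.24 in chronic lesioned and 0.0867 to 0.344 in chronic unlesioned libraries. Here the 2 middle groups overlapped.

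**Figure D4:**
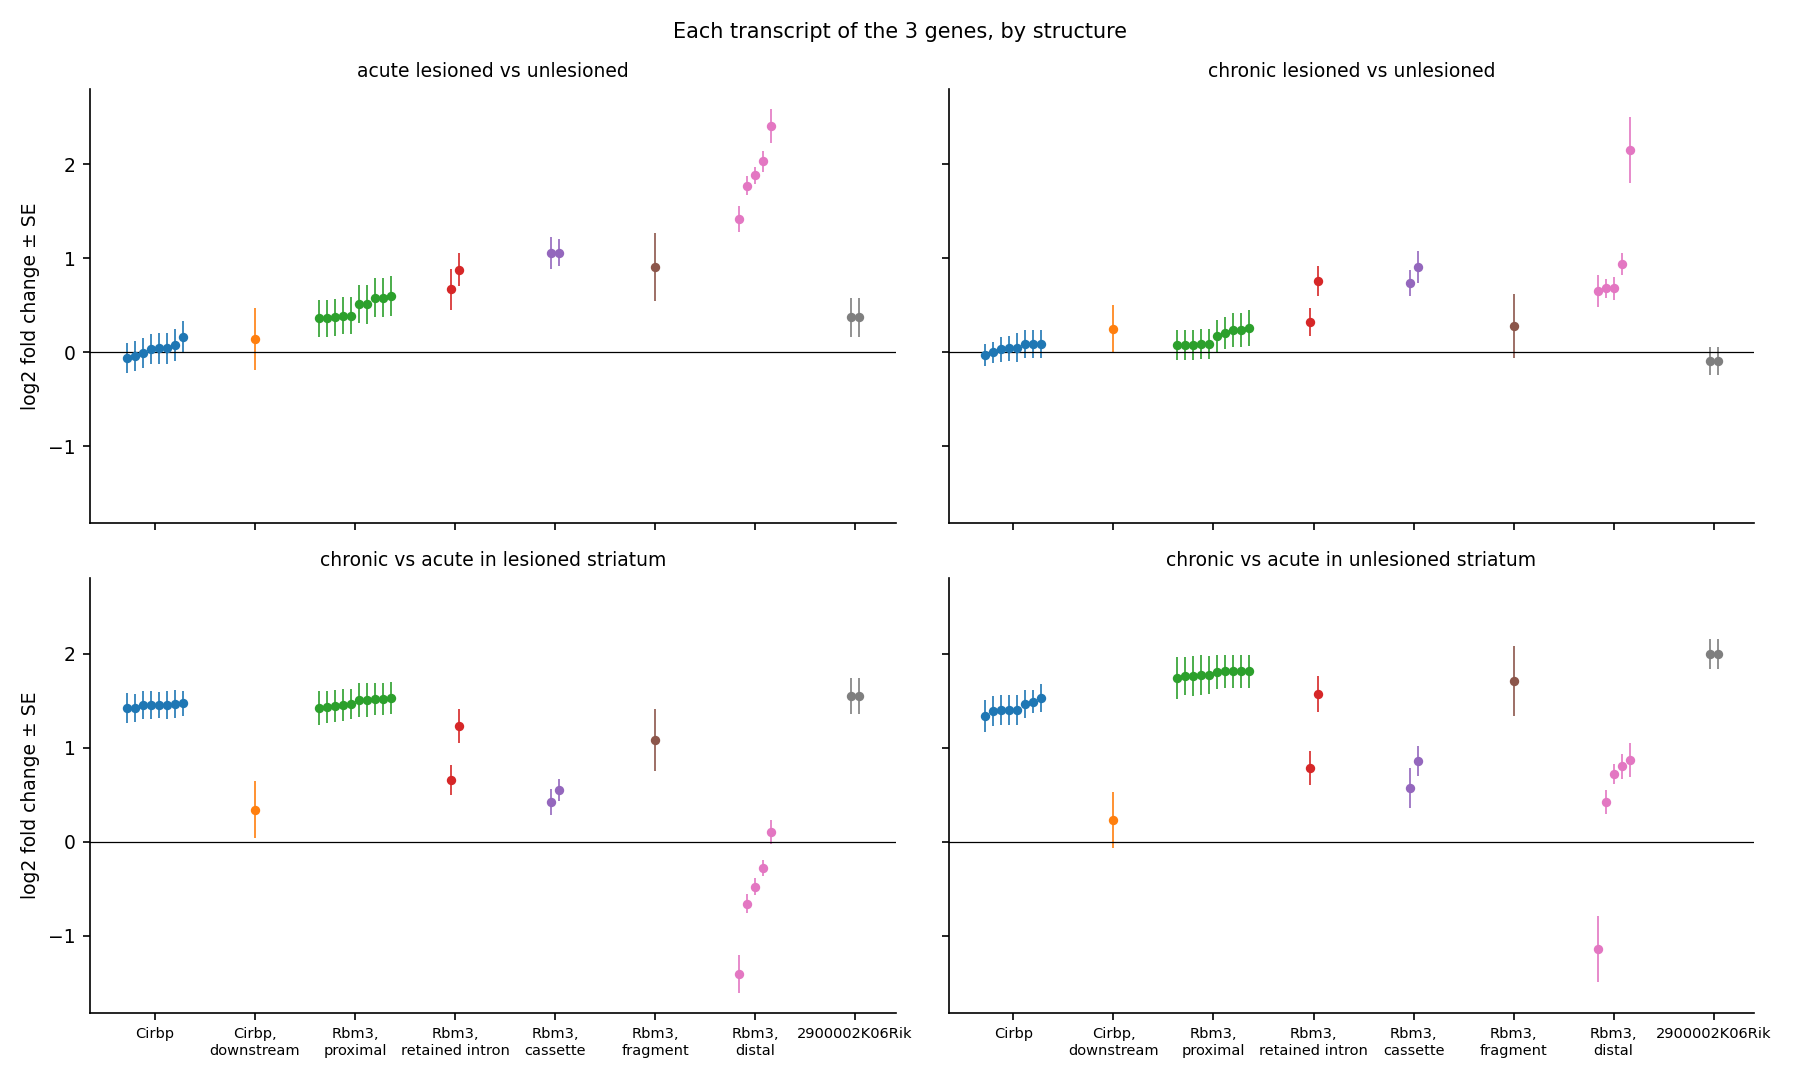
log2 fold change ± SE (vertical axes) of the 31 transcripts with enough counts, grouped by structure, in 4 comparisons of 3 against 3 libraries. Between the 2 sides the distal transcript AK011224 lies highest, at 2.41 and 2.15, while between treatments the Cirbp gene body and the proximal Rbm3 mRNA sit between 1.34 and 1.81.

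2900002K06Rik is a non-coding gene (named Rbm3os in later annotation) that starts at chrX:7722553 on the plus strand. Its transcript NR_033561 (chrX:7722553-7725090, 3 exons, 841 bases) had 60, 50 and 67 counts in acute unlesioned, 66, 35 and 67 in acute lesioned, 188, 170 and 245 in chronic unlesioned and 126, 135 and 199 in chronic lesioned striatum. All 6 chronic libraries were above all 6 acute ones, with log2 fold changes of 1.55 ± 0.19 in the lesioned and 2 ± 0.16 in the unlesioned striatum. Between the sides it was 0.37 ± 0.21 after acute and -0.09 ± 0.15 after chronic L-DOPA. AK013472 had the same count in every library.

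The library kit did not mark the strand of a read, so reads from the first exon of 2900002K06Rik and from the overlapping start of Rbm3 cannot be told apart. The spans of the 2 genes share 454 bases, and 94 exonic bases of the antisense gene lie in Rbm3 exons of GENCODE M1. Its counts were a near constant share of those of the proximal Rbm3 mRNA, at 0.565 to 0.759 per count over the 12 libraries, with a Pearson correlation of 0.992 on the log2(CPM + 0.5) scale. The third transcript, ENSMUST00000133616 (chrX:7723043-7724802, 380 bases), shares no exonic base with Rbm3 and 248 bases with the other antisense exons. It had 0 to 3 counts per library and 13 in all 12 libraries, against 1408 for NR_033561. Acute lesioned striatum gave 3, 2 and 2 of these counts and each other group 0 to 2 per library, and the transcript did not pass the filter, so no fold change was fitted. The rest of the antisense exons outside Rbm3 was not read apart, so where along NR_033561 its counts lie was not examined.

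By the likeness measure above, the 5 genes closest to Cirbp among 12791 with at least 1 CPM on average were Arhgef10l (0.973), Wdr19 (0.973), LOC432596 (0.971), Gm10023 (0.971) and C030014I23Rik (0.97). For NM_016809 of Rbm3 they were Mapkapk2 (0.965), Lonrf3 (0.95), Mex3d (0.947), Cnbp (0.943) and Ddx3y (0.943). For the proximal Rbm3 mRNA, a choice made after its values were seen, they were Eml2 (0.976), LOC432596 (0.968), 4931406C07Rik (0.967), Cdk5rap3 (0.957) and Ercc3 (0.956). Eml2, for example, was at 26.4 and 27 CPM on average in acute unlesioned and lesioned striatum and at 40.8 and 44.2 CPM in the chronic groups. Arhgef10l went from 7.01 and 7.39 to 10.9 and 10.7 CPM, a smaller step than that of Cirbp.

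Other genes of the temperature response and of the same families were taken from lists and tested, each by its most abundant transcript, with edgeR's quasi-likelihood test and Benjamini-Hochberg adjustment over all transcripts. Across all genes, 8.16% were higher and 7.16% lower in acute lesioned than acute unlesioned striatum at an adjusted p under 0.05. The shares were 8.45% and 5.2% for chronic lesioned against unlesioned, 12.5% and 13.1% for chronic against acute in the lesioned striatum and 1.07% and 2% for chronic against acute in the unlesioned striatum. Lesion effects changed upwards between acute and chronic L-DOPA for 3.53% of genes and downwards for 1.56%. Median log2 fold changes over all genes lay between -0.03 and 0.02.

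Of heat shock factor 1 and its target chaperones, which are known to answer warming where Rbm3 and Cirbp answer cooling, 19 fell from acute to chronic L-DOPA in the lesioned and 5 in the unlesioned striatum, and whether the 2 sides differ in this was not tested for the list. In the lesioned striatum this was 19 of 21 (median log2 fold change -0.56). Without acute lesioned replicate 2 the test called 12 of them, and with other libraries left out up to 21. Hspa1a, an inducible Hsp70, fell by 3.32 ± 0.56 on the log2 scale (adjusted p = 0.00233), its near-identical copy Hspa1b by 3.17 ± 0.69 (adjusted p = 0.00842), and the co-chaperone Dnajb1 by 2.68 ± 0.29 (adjusted p = 0.000133). Reads of the Hspa1a and Hspa1b pair may be split between them by the counting.

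In the unlesioned striatum 5 of 21 heat shock genes fell (median -0.41), led by the small chaperone Cryab (-1.12 ± 0.25, adjusted p = 0.0446), Chordc1 (-0.99 ± 0.16, adjusted p = 0.0157) and Hsph1 (-0.68 ± 0.13, adjusted p = 0.0272). None of the 11 genes of all lists called in this comparison was called without acute unlesioned replicate 1 or without replicate 2 of that group, while 32 list genes were called without chronic unlesioned replicate 2. Here 19 of 21 heat shock genes had an unadjusted p under 0.05 with a negative value. The share of all genes at an unadjusted p was not taken, so such counts, here and below, are not read as results about a list.

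On the lesioned side 6 of 21 heat shock genes were higher after acute L-DOPA (median 0.32), and 11 in a fit blocked on replicate number, since the 2 striata of a number deviated together. The block raised calls in general, from 16684 to 28240 transcripts in the acute and from 15295 to 27506 in the chronic comparison of sides. No share of genes called with the block was taken, here or for the other lists. With a library left out, the unblocked fit called 5 to 10 of the heat shock genes. Dnajb1 stood at 12.1 to 23.2 CPM in acute unlesioned and 169 to 265 CPM in acute lesioned striatum, 3.64 ± 0.22 higher on the log2 scale (adjusted p = 4.55e-07). Bag3 was higher by 0.88 ± 0.15 (adjusted p = 0.00257) and Hsph1 by 0.87 ± 0.20 (adjusted p = 0.0171), the latter not past the threshold without acute lesioned replicate 2 or acute unlesioned replicate 3. After chronic L-DOPA 3 rose and 1 fell (6 and 1 with the block, and with a library left out 1 to 5 rises, the 1 without chronic unlesioned replicate 1). Dnajb1 rose by 1.51 ± 0.29 (adjusted p = 0.00781) and Hspa8 by 0.58 ± 0.13 (adjusted p = 0.0187), and Hspa4l fell by 0.44 ± 0.11 (adjusted p = 0.0237). Dnaja1, named after its value was seen, rose by 0.43 ± 0.12 (adjusted p = 0.0392), a call lost without chronic lesioned replicate 2 or 3 or chronic unlesioned replicate 1 or 3. The calls of Hspa8 and Hspa4l were lost without chronic unlesioned replicate 3, that of Hspa8 also without replicate 1 of that group, and that of Hspa4l also without chronic lesioned replicate 1 or 3.

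**Figure D5:**
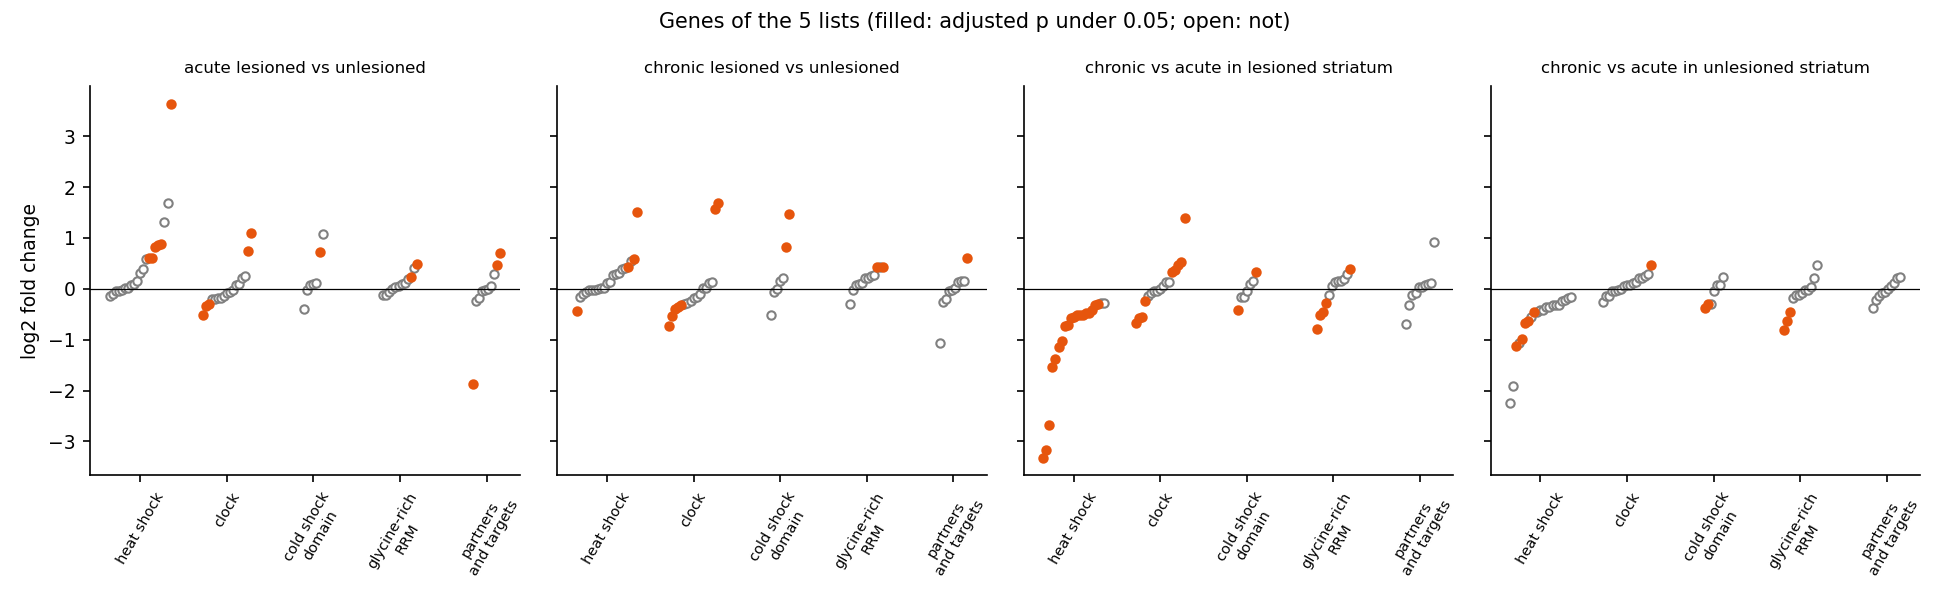
log2 fold change (vertical axis) of each gene of 5 lists in 4 comparisons, filled where the adjusted p is under 0.05 and open where it is not. Of the heat shock genes, 19 of 21 are filled and below 0 for chronic against acute in the lesioned striatum, and Dnajb1 stands highest, at 3.64, for acute lesioned against unlesioned striatum.

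Clock genes, whose rhythm Cirbp is known to support, moved in both directions. Of 17 tested, 2 rose and 3 fell on the lesioned side after acute L-DOPA (4 and 7 with the block, and 2 to 5 falls with a library left out), and 2 rose and 5 fell after chronic L-DOPA (1 of the 5 without chronic unlesioned replicate 1). Per1, an immediate-early clock gene, rose by 1.1 ± 0.07 (adjusted p = 1.13e-06) and by 1.57 ± 0.08 (adjusted p = 4.92e-07). Bhlhe40, a clock repressor also induced by activity, rose by 0.75 ± 0.12 (adjusted p = 0.00192) and 1.68 ± 0.12 (adjusted p = 8.33e-06). Arntl fell by 0.51 ± 0.07 after acute L-DOPA (adjusted p = 0.000655) and Dbp by 0.73 ± 0.09 after chronic L-DOPA (adjusted p = 0.000498). Chronic against acute, 5 rose and 4 fell in the lesioned striatum (2 to 3 falls with a library left out, and 2 without acute lesioned replicate 1), with Bhlhe40 at 1.4 ± 0.15 (adjusted p = 0.000146), Per3 at -0.67 ± 0.1 (adjusted p = 0.000962) and Dbp at -0.58 ± 0.09 (adjusted p = 0.00112). The other 4 rises, of Npas2, Per1, Cry2 and Bhlhe41, all missed the threshold without chronic lesioned replicate 1. These 4 are named after their values were seen. In the unlesioned striatum Bhlhe40 rose by 0.47 ± 0.08 (adjusted p = 0.0175).

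The other proteins with a cold shock domain, which bind nucleic acids through a fold other than the RNA recognition motif of Rbm3 and Cirbp, did not move together. Of 7 tested, Csdc2, a brain protein of this family, rose on the lesioned side by 0.72 ± 0.06 after acute (adjusted p = 1.27e-05) and 0.82 ± 0.08 after chronic L-DOPA (adjusted p = 8.44e-05). Ybx2 rose by 1.47 ± 0.29 after chronic L-DOPA (adjusted p = 0.00854), at means of 0.0971 and 0.267 CPM, and missed the threshold without chronic unlesioned replicate 3 (adjusted p = 0.0504). With the block, 2 rose and 1 fell after acute and 3 rose after chronic L-DOPA. Chronic against acute in the lesioned striatum, Csdc2 rose by 0.33 ± 0.07 (adjusted p = 0.00903; 0.0546 without acute lesioned replicate 2) and Csda fell by 0.42 ± 0.09 (adjusted p = 0.00836). In the unlesioned striatum Csda fell by 0.38 ± 0.08 (adjusted p = 0.0372) and Ybx1 by 0.3 ± 0.06 (adjusted p = 0.0368).

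Relatives of Rbm3, listed for RNA recognition motifs and a glycine-rich region, were mostly lower where they differed between treatments. Of 12, 1 rose and 4 fell from acute to chronic L-DOPA in the lesioned striatum (1 to 3 and 2 to 4 with a library left out, the 2 without acute lesioned replicate 2), and 3 fell in the unlesioned striatum. The gene that rose was Hnrnpd (0.39 ± 0.08, adjusted p = 0.00875), named after its value was seen. The fourth that fell, Hnrnpab, was at -0.28 ± 0.07 (adjusted p = 0.0211) and lost its call without any of the acute lesioned libraries or chronic lesioned replicate 3. Hnrnpa2b1 fell by 0.51 ± 0.08 (adjusted p = 0.00102) and 0.45 ± 0.07 (adjusted p = 0.0159). The splicing regulator Tra2a fell by 0.79 ± 0.18 (adjusted p = 0.00949; 0.0527 without chronic lesioned replicate 1) and 0.8 ± 0.16 (adjusted p = 0.0308). Hnrnpa1 fell by 0.46 ± 0.13 (adjusted p = 0.0292) and 0.63 ± 0.12 (adjusted p = 0.0277), and in the lesioned striatum its call was lost without acute lesioned replicate 2 or 3 or chronic lesioned replicate 1 or 3. On the lesioned side 2 of 12 rose after acute and 2 after chronic L-DOPA (6 with the block after chronic, and 1 to 3 and 1 to 4 with a library left out), Hnrnpa2b1 by 0.48 ± 0.07 (adjusted p = 0.0007) and 0.42 ± 0.08 (adjusted p = 0.0059), Hnrnpab by 0.23 ± 0.06 after acute (adjusted p = 0.0203) and Tra2b by 0.43 ± 0.1 after chronic L-DOPA (adjusted p = 0.015). The calls of Hnrnpab and Tra2b were each lost when a single library was left out: acute lesioned replicate 2 or acute unlesioned replicate 1 or 2 for Hnrnpab, and chronic unlesioned replicate 1 or 3 for Tra2b.

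Known partners and targets of both proteins formed the last list: Rtn3, a mediator of Rbm3 in synapse protection, the TrkB pathway, mRNAs that Cirbp binds, receptors of extracellular Cirbp and Srsf5, a splicing factor known to be cold-induced. Of 10 tested, 2 rose and 1 fell on the lesioned side after acute L-DOPA (2 and 2 with the block). Srsf5 rose by 0.71 ± 0.13 (adjusted p = 0.0036) and Ntrk2, which encodes TrkB, by 0.47 ± 0.07 (adjusted p = 0.000716). Bdnf fell by 1.88 ± 0.56 (adjusted p = 0.0458), at 0.122 to 0.575 CPM unlesioned and 0.0347 to 0.144 CPM lesioned, and that call was lost without acute lesioned replicate 2 or 3 or acute unlesioned replicate 1 or 3 (adjusted p up to 0.203). After chronic L-DOPA only Srsf5 passed, at 0.6 ± 0.15 (adjusted p = 0.0237), and not without chronic lesioned replicate 1 or 3 or chronic unlesioned replicate 3. Between treatments edgeR called 0 of 10 in either striatum. At an unadjusted p under 0.05 there was 1 gene in each, and DESeq2 called 1 in the unlesioned striatum. Rtn3 stood at 154 to 174 CPM in all 12 libraries.

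Genes within 50 kb of Rbm3 and Cirbp were mostly not called between treatments. Of 6 neighbours of Rbm3 tested, Porcn, an enzyme that lipidates Wnt proteins, rose from acute to chronic L-DOPA in the lesioned striatum by 0.48 ± 0.1 (adjusted p = 0.00779) and was higher on the lesioned side after chronic L-DOPA by 0.46 ± 0.09 (adjusted p = 0.00636). In the unlesioned striatum edgeR and DESeq2 each called 0 of the 6 between treatments, with 1 lower at an unadjusted p under 0.05. After acute L-DOPA Was was higher on the lesioned side by 0.87 ± 0.22 (adjusted p = 0.0254) and Tbc1d25 lower by 0.32 ± 0.1 (adjusted p = 0.0464). Tbc1d25 lost its call with any of the 6 libraries left out, and Was without any of the acute unlesioned libraries or acute lesioned replicate 2.

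Of 8 neighbours of Cirbp, 2 rose on the lesioned side after acute (4 with the block, and 2 to 4 with a library left out) and 4 after chronic L-DOPA. Midn, a known activity-regulated gene, stood at 10.8 to 12.5 and 27.4 to 33 CPM in acute unlesioned and lesioned and at 9.5 to 10.8 and 53.8 to 57.1 CPM in chronic unlesioned and lesioned striatum. This is a rise of 1.38 ± 0.08 (adjusted p = 3.24e-07) and 2.48 ± 0.08 (adjusted p = 3.43e-08). Efna2, a membrane ligand, rose by 0.96 ± 0.13 (adjusted p = 0.000475) and 0.64 ± 0.13 (adjusted p = 0.00951), and Dos by 1.12 ± 0.09 after chronic L-DOPA (adjusted p = 1.84e-05). Chronic against acute in the lesioned striatum, Midn rose by 0.9 ± 0.08 (adjusted p = 5.73e-05) and Dos by 0.8 ± 0.09 (adjusted p = 0.000192), and the clone AK085848 fell by 0.96 ± 0.26 (adjusted p = 0.0224), a call lost without acute lesioned replicate 1 or 2 or chronic lesioned replicate 1 or 3. In the unlesioned striatum, where Cirbp was 2.63-fold higher after chronic L-DOPA, edgeR and DESeq2 each called 0 of the 8, and 4 were lower at an unadjusted p under 0.05.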

How the data were processed

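Per the labels, RNA of 12 striatal samples (4 groups of 3) was made into libraries with an Illumina TruSeq kit that does not mark strand, and the reads were mapped to mm9. The authors deposited raw read counts per transcript, in which a read can be counted on several transcripts of a gene; the submitters' processing notes name DESeq, and its version is not given in the sources used here. Another 48 columns of per-sample values, and the authors' fold changes and p-values, were not used. Counts of transcripts without a gene name (296, 0.0485% of counts) were left out. The labels give 3 mice per condition, and whether the 2 striata of a replicate number come from 1 mouse is not stated.

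The members and gene lists were chosen with earlier results of these data known. All tests were edgeR 4.0.16 quasi-likelihood fits (R 4.3.3) over all transcripts kept by filterByExpr, with TMM scaling, 6 libraries per comparison and 12 for the change of the lesion effect, with Benjamini-Hochberg adjustment over all transcripts and a threshold of 0.05. CPM values are TMM-scaled over 12 libraries, and SE is the log2 fold change divided by the square root of F. A gene of a list stands by its transcript of highest mean count. Named were all member transcripts, the 3 largest changes past the threshold per list and comparison, and the 5 genes most like Rbm3 and Cirbp (Pearson on log2(CPM + 0.5), mean of at least 1 CPM). Tested on simulated data for the acute comparison (129674 transcripts), 100 of 100 changes of 1 and 100 of 100 of 2 on the log2 scale were recovered, with 34 false among 234 calls (14.5%, above the nominal rate). For the change of the lesion effect (130867 transcripts), 76 of 100 and 100 of 100 were recovered, with 16 false among 192 calls (8.33%).

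Deviations from the group mean correlated between same-numbered lesioned and unlesioned libraries at 0.39 to 0.478 in acute and 0.153 to 0.566 in chronic mice (12794 genes), so the numbers were taken to pair the 2 striata within a treatment. Between treatments they did not pair (-0.163 to 0.249). Alternatives were DESeq2 1.42.0, its size factors, no filter, 1 transcript per gene, sums over transcripts, a joint fit, a replicate block, a stricter threshold and leaving out each library. Exon structures are those of GENCODE M1 on NCBIM37.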

Additional observations from a re-analysis of the deposited data

Results flagged for a closer look

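A test of the difference between the 2 lesion effects (chronic minus acute, log2 scale, edgeR's quasi-likelihood interaction over 12 libraries) set apart 8 genes of the lists, and 18 in the fit with the replicate block. Among the heat shock genes it was -2.13 for Dnajb1 (adjusted p = 0.00847) and -0.84 for Dnajb4 (adjusted p = 0.0186). Dnajb4 missed the threshold without acute lesioned replicate 1 or 2 or acute unlesioned replicate 3. Among the clock genes it was -0.74 for Per3 (adjusted p = 0.0113), -0.54 for Dbp (adjusted p = 0.0248) and 0.93 for Bhlhe40 (adjusted p = 0.0106). Per1, beyond the naming rule, was at 0.47 (adjusted p = 0.0174) and missed the threshold without acute lesioned replicate 1 or 2 or acute unlesioned replicate 2. Dbp missed the threshold with each of 6 libraries left out, namely acute lesioned replicate 2 or 3, acute unlesioned replicate 1 or 2, chronic lesioned replicate 1 and chronic unlesioned replicate 2. Next to Cirbp it was 0.84 for Dos (adjusted p = 0.00203) and 1.11 for Midn (adjusted p = 4.5e-05). No cause of these differences was tested.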

How the results depend on the processing

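Under the planned settings, 281 values stayed within the replicate SD or within 1.5 times the count, 68 moved further and 1, of Rbm3, was reversed. Within the SD, values near 0 crossed it when a library was left out: Cirbp between sides (to -0.15 acute and -0.05 chronic) and in the change of its lesion effect (to -0.13), and 2900002K06Rik between sides after chronic L-DOPA (to 0.04). Rbm3 as a gene was the least stable: summed over its transcripts, its log2 fold changes were 1.26 (acute lesioned against unlesioned), 0.47 (chronic lesioned against unlesioned), 0.40 (chronic against acute, lesioned, a change of sign), 1.19 (chronic against acute, unlesioned) and -0.79 (change of the lesion effect). Read by ENSMUST00000115616, an alternative added after seeing the data, they were 0.36, 0.08, 1.52 (a change of sign), 1.8 and -0.28. Why these values moved was not tested. With each library left out, Rbm3 (NM_016809) ran from 1.82 to 1.98 in the acute comparison of sides and from 0.66 to 0.83 between treatments in the unlesioned striatum, with -1.30 to -1.14 for the change. For 2900002K06Rik the ranges were 0.21 to 0.55, -0.25 to 0.04, 1.38 to 1.71, 1.90 to 2.19 and -0.64 to -0.29 in the order above. Cirbp stayed within 1 SD of its values with each library left out.

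Counts of calls moved more, and the cause was not tested beyond what each setting removes. In the same order, the 16684, 15295, 29699, 3370 and 5911 transcripts called became 6708, 7079, 12539, 108 and 2474 at an adjusted p under 0.01, and 3133, 2661, 4910, 545 and 1053 with 1 transcript per gene. The 21, 21, 39, 11 and 8 list genes called became 12, 22, 1 and 3 in the last 4 comparisons at an adjusted p under 0.01. With the replicate block, 28240, 27506 and 15879 transcripts were called for the 2 comparisons of sides and the change, and 38 list genes in the acute comparison and 18 for the change. The block moved no member by over 0.04 log2. Between treatments, where the numbers do not pair, it took the 2 falls of cold shock domain genes in the unlesioned striatum to 0. A joint fit over 12 libraries gave 22945 transcripts for the chronic comparison of sides. In the unlesioned striatum DESeq2 called 6278 transcripts and 17 list genes, and fitting without a filter 5821 transcripts. With each library left out, transcripts called ran from 9543 to 15329, 9137 to 14863, 16025 to 36534, 66 to 14377 and 3794 to 9536, and list genes from 24 to 45, 0 to 32 and 5 to 11 in the last 3 comparisons. Depth limits the distal, cassette and antisense transcripts, with 32 to 644, 102 to 315 and 35 to 245 counts per library.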
